A study of Mus musculus with 2 samples.

Results

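This account covers 7 mouse genes for digestive enzymes of the intestinal brush border, chosen by name out of the 18944 genes listed for both libraries. They are the sugar hydrolase genes Lct, Sis, Mgam and Treh and the alkaline phosphatase genes Alpi, Akp3 and Alpl, and each was found as 1 row in both tables. RNA was sequenced from 1 culture labelled as Stat6 knockout (KO) intestinal stem cells and from 1 culture labelled as wild type (WT) intestinal stem cells. Both cultures carried the Lgr5GFP-CreERT2 allele, a green fluorescent protein joined to an inducible Cre recombinase and driven from the Lgr5 stem cell gene, and both are labelled with an age of 2 months. The KO was made with a lentivirus that delivered CRISPR/Cas and guide RNAs against Stat6, followed by screening for deficient cells. The labels repeat this protocol for the WT sample, so they do not tell whether WT cells were exposed to a virus without these guides, nor whether the KO culture was 1 clone. Both cultures were grown in a serum-free medium with EGF, R-spondin 1 and the kinase inhibitor Y27632. With 1 library per genotype there is no spread between samples, so no difference below has a test or a replicate check.

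Microvilli on the luminal face of absorptive enterocytes carry enzymes that finish digestion at the cell surface. Disaccharidases split the sugars left after amylase into glucose, galactose and fructose, which sodium-coupled and facilitative carriers then take up. Lactase is abundant in suckling mammals and usually declines around weaning, whereas sucrase-isomaltase and trehalase become abundant in rodents at that time. Intestinal alkaline phosphatases are anchored to the outer membrane by a glycolipid (GPI) and remove phosphate from nucleotides and from bacterial lipopolysaccharide. These genes are widely used as marks of a mature enterocyte, and STAT6 is the transcription factor through which the cytokines IL-4 and IL-13 act.

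The stretches of DNA just upstream of 4 of the genes are given first, namely of the genes with the 3 highest log2 ratios of KO over WT among the 7 and of Alpi, the neighbour of Akp3. The window of Treh, which also passed 2-fold, is not printed and held 0 matches to the motifs below. They are the 250 bases before the annotated transcription start, from RefSeq on build GRCm38.p6, written 5′ to 3′ on the strand of the gene. The positions are chr1:128328319-128328568 (minus strand) for Lct, chr3:72967864-72968113 (minus) for Sis, chr1:87124704-87124953 (plus) for Akp3 and chr1:87101607-87101856 (minus) for Alpi. Capitals mark the motifs TTCNNNNGAA (the palindrome type that STAT6 binds), TTTAC and TTTAT (CDX type) and GATAA (GATA type), on either strand.
Lct: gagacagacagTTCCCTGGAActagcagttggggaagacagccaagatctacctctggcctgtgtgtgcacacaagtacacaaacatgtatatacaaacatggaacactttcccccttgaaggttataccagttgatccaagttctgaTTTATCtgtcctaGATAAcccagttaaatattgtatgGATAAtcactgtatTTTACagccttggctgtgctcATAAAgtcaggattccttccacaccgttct
Sis: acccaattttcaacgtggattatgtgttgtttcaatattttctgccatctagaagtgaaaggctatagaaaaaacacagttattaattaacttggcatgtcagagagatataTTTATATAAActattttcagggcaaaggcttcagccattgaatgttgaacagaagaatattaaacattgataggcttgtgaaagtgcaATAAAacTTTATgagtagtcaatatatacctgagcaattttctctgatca
Akp3: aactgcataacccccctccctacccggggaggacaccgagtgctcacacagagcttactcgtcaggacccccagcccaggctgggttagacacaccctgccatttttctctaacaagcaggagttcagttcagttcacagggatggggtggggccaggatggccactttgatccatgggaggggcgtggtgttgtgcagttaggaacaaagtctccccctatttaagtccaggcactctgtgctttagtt
Alpi: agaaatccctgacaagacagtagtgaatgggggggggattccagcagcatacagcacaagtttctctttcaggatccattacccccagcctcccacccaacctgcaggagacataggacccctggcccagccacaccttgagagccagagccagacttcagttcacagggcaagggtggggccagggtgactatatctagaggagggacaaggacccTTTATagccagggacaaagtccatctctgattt

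In the Lct window the TTCNNNNGAA palindrome began 239 bases before the start. TTTAC on the gene's strand began 51 bases before it, next to GATAA matches that began 101, 89 and 65 bases before it. The match at 101 overlaps a TTTAT that begins at 102, and a further TTTAT on the other strand lies 30 bases before the start. Sis had 4 matches to TTTAT, and 2 of them, on opposite strands, abut in the run of capitals that begins 138 bases before the start. Alpi had 1 TTTAT, and the Akp3 window held none of the marked letters. A stretch of 33 bases, from 94 to 62 bases before the Alpi start and from 122 to 90 before the Akp3 start, was identical at 29 positions.

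Among all 32841 RefSeq windows of 250 bases, 5.85% held TTCNNNNGAA, 28.3% held TTTAC, 37.3% held TTTAT and 22.6% held GATAA. Over the 8 windows of the 7 genes, Alpl having 2 starts, TTCNNNNGAA was found in 1, TTTAC in 1, TTTAT in 5 and GATAA in 2. The related STAT palindrome TTCNNNGAA was found in 0 of the 8 and in 7.02% of all windows. Such matches describe letters in a window and are not evidence of binding.

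Each level is given in FPKM, the number of fragments per kilobase of RNA after scaling by library total, which is a level per length and can be set side by side between genes. The difference is given as a log2 ratio, log2((KO FPKM + 1)/(WT FPKM + 1)), which understates the fold of genes near 1 FPKM. A gene was taken as measured when either library had it at 1 FPKM or above, and 6 of the 7 genes did, Alpl being the exception. In KO, 5 of the 6 measured genes stood higher by 2-fold or more and 0 stood lower by that much, and the other, Mgam, also read higher. Over the 12079 genes measured, 2.44% stood higher in KO by 2-fold or more and 2.19% stood lower. With a trimmed mean of M values (TMM) as scaling factor the count was 6 of 6 where 3.62% of all genes passed, and with the median of all genes set to 0 it was 6 of 6 against 3.39%. With a pseudocount of 5 the count was 4 of 6 against 1.19%, and at 4-fold it was 3 of 6 against 0.422%. The median log2 ratio was 1.92 over the 6 genes and -0.18 over all genes measured. Lct was counted as measured only through its KO level, so it had to read higher there. Where 1 FPKM was required in both libraries, 4 of 5 genes passed 2-fold against 2.11% of all genes, with a median of 1.52.

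**Figure D1:**
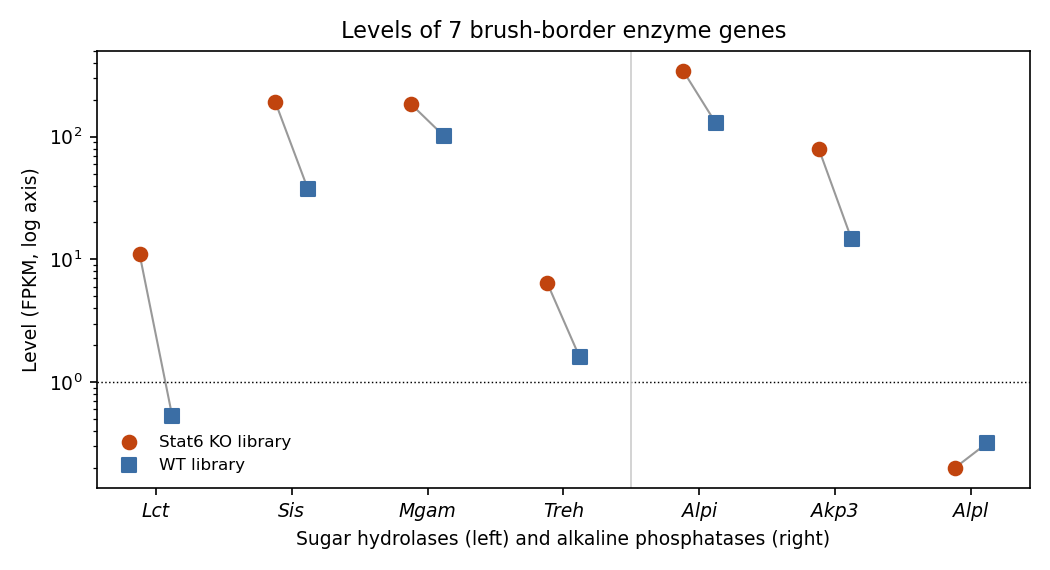
Level of each of the 7 genes in FPKM on a log axis, with the Stat6 KO library as circles and the WT library as squares, joined by a line; the dotted line marks 1 FPKM. The KO circle lies above the WT square for the 6 genes from Lct to Akp3, and below it for Alpl, where both lie under 1 FPKM.

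Among the sugar hydrolases the largest difference was in Lct (Entrez gene 226413), which encodes lactase-phlorizin hydrolase, the enzyme that splits milk sugar. Lct was at 11.03 FPKM in KO and 0.53 FPKM in WT, a log2 ratio of 2.98. The plain ratio of the levels was 20.8, and rounding of the deposited values to 2 decimals allows 20.6 to 21.0. At the depths estimated below, these levels stand for about 1381 reads in KO and about 66 reads in WT. Only 5 of the 12079 genes measured had a higher log2 ratio. Lct was therefore a low transcript in WT, above 31.9% of listed genes, and a middling one in KO, above 69.2% of them.

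Sis (Entrez gene 69983) encodes sucrase-isomaltase, which hydrolyses sucrose and the branch points of starch fragments. Its level was 190.18 FPKM in KO and 37.18 FPKM in WT, with a plain ratio of 5.12 and a log2 ratio of 2.32. That placed Sis at rank 29 from the highest log2 ratio. Mgam (Entrez gene 232714), maltase-glucoamylase, is the close relative of Sis that releases glucose from the ends of starch fragments. The transcripts of the pair were identical at 70.8% of 4715 aligned bases and shared 0 windows of 50 bases. Mgam was at 183.2 FPKM in KO and 101.34 FPKM in WT, a plain ratio of 1.81 and a log2 ratio of 0.85, which is under the 2-fold line. Relative to the median of all genes its log2 ratio was 1.03, so its side of that line depends on the scaling. Treh (Entrez gene 58866) encodes trehalase, a GPI-anchored enzyme for the fungal and insect sugar trehalose. It was at 6.44 FPKM in KO and 1.59 FPKM in WT, or about 264 reads in KO and 65 in WT, with a plain ratio of 4.05 and a log2 ratio of 1.52.

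The balance within the sugar hydrolases differed between the libraries as well. Their summed level was 390.85 FPKM in KO and 140.64 FPKM in WT, a plain ratio of 2.78. Sis made up 48.7% of that sum in KO and 26.4% in WT, while Mgam made up 46.9% in KO and 72.1% in WT. Sis and Mgam were thus close to level in KO, with 0.963 times as much Mgam as Sis, whereas WT held 2.73 times as much Mgam as Sis. Lct gave 2.82% of the sum in KO and 0.377% in WT, and Treh 1.65% in KO and 1.13% in WT. These shares are taken within a library and do not change with the scaling between libraries.

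**Figure D2:**
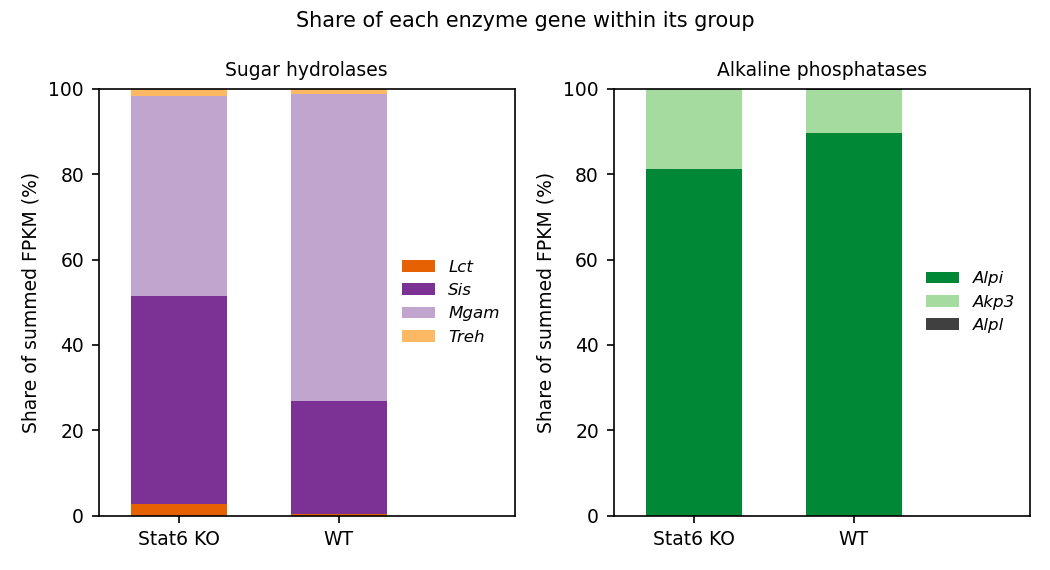
Share of each gene in the summed FPKM of its group, in percent, with the Stat6 KO library as the left bar and the WT library as the right bar of each panel. In the sugar hydrolases Mgam takes 46.9% in KO and 72.1% in WT; in the alkaline phosphatases Akp3 takes 18.6% in KO and 10.1% in WT.

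Alpi (Entrez gene 76768), the intestinal alkaline phosphatase found along the gut, was the most abundant of the 7 genes in both libraries. Its level was 345.38 FPKM in KO and 129.66 FPKM in WT, with a plain ratio of 2.66 and a log2 ratio of 1.41. Akp3 (Entrez gene 11648) is the duodenal form known from the mouse. It was at 79.15 FPKM in KO and 14.67 FPKM in WT, with a plain ratio of 5.4 and a log2 ratio of 2.35, rank 28 from the highest. KO held 4.36 times as much Alpi as Akp3 and WT 8.84 times as much, so the minor form differed by the larger ratio. In FPKM the difference was larger for Alpi, at 215.72 against 64.48 for Akp3. The 2 genes together were at 424.53 FPKM in KO and 144.33 FPKM in WT, a log2 ratio of 1.55.

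Alpi and Akp3 lie next to each other, and reads that match both may be divided between them by estimation. The longest GENCODE M21 transcripts of the 2 genes were identical at 82.8% of 1627 aligned bases. Of the 50-base windows in the Akp3 transcript, 2.15% also occurred in Alpi, and 2.40% of those in the Alpi transcript occurred in another gene. The sequenced reads were 50 bases long, so few reads without a mismatch could be confused between the pair. Shared windows made up 0.388% in Mgam and 1.55% in Treh, and there were 0 in Lct, Sis and Alpl.

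Alpl (Entrez gene 11647) encodes the tissue-nonspecific alkaline phosphatase, which is known for its part in bone mineralization. It was barely detected, at 0.20 FPKM in KO and 0.32 FPKM in WT, or about 10 reads in KO and 16 in WT. Its log2 ratio of -0.14 came from too few reads to give a direction. Alppl2, the embryonic alkaline phosphatase next to Alpi, is not among the 7 genes. It was at 0.90 FPKM in KO and 0.15 FPKM in WT, about 38 reads in KO and 6 in WT, and did not reach the minimum either. The alkaline phosphatase transcripts in both cultures were thus almost wholly of the intestinal forms, with Alpl at 0.0471% of the 3 genes' sum in KO and 0.221% in WT.

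From highest to lowest, the levels in KO ran Alpi, Sis, Mgam, Akp3, Lct, Treh and Alpl. In WT they ran Alpi, Mgam, Sis, Akp3, Treh, Lct and Alpl. The order therefore differed by 2 exchanges of neighbours, Sis with Mgam and Lct with Treh. In KO Sis and Mgam were only 190.18 and 183.2 FPKM, and without replicates their order there cannot be judged.

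**Figure D3:**
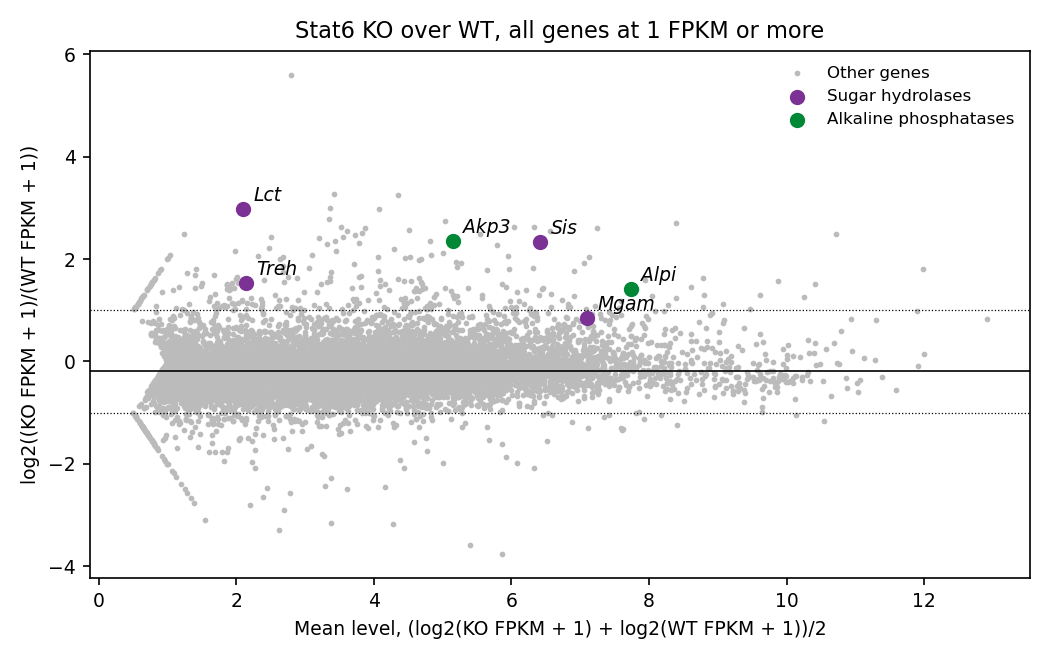
log2 ratio of KO over WT (vertical axis) against the mean log2(FPKM + 1) of both libraries (horizontal axis) for the 12079 genes measured, with the sugar hydrolases in purple and the alkaline phosphatases in green. The solid line is the median of all genes (-0.18) and the dotted lines mark 2-fold; 5 of the 6 named points lie above the upper dotted line and Mgam, at 0.85, lies just under it.

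Facts about both libraries bear on these values. The tables carry no counts; the steps of the low FPKM values corresponded to about 20400000 reads in KO and 20200000 in WT, against an average of 59000000 sequenced reads in the labels. Stat6 RNA (Entrez gene 20852) read 44.18 FPKM in KO and 41.30 FPKM in WT. The RNA level does not show the loss of Stat6, so the genotype rests on the label. The 6 stem cell markers were all measured, among them Lgr5 at 1.88 FPKM in KO and 1.79 FPKM in WT, and summed to 71.7 FPKM in KO and 80.2 FPKM in WT. The 21 enterocyte markers summed to 20578 FPKM in KO and 6691 FPKM in WT, so that transcripts of differentiated cells were plentiful in both cultures labelled as stem cells.

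Markers of absorptive cells outside the 7 genes moved with them. In KO 13 of the 21 enterocyte markers stood higher by 2-fold or more and 0 lower, with a median log2 ratio of 1.37. Over all genes measured 2.44% stood higher and 2.19% lower by that much. Among the largest log2 ratios in the marker list were those of the surface peptidases Mme (2.99) and Enpep (2.63) and of the apolipoprotein Apoa1 (2.71). The smallest were those of Cdhr5 (0.18), Cdhr2 (0.38) and Mep1a (0.38). Set against the list, Lct, measured only through KO, had a higher log2 ratio than 20 of the 21 markers. Sis and Akp3 each had a higher one than 16. Treh stood above 12, Alpi above 11 and Mgam above 7. The enzyme genes thus spread over much of the range of the markers, without reaching its lowest values. In these bulk samples a larger number of mature enterocytes and more enzyme RNA per enterocyte cannot be told apart.

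By log2 ratio, markers of the other cell types that the cultures could hold were mostly within 2-fold. Over all genes measured 2.44% were higher and 2.19% lower by that much. Non-epithelial markers were mostly low, and the log2 ratio understates folds near 1 FPKM. Of 12 secretory cell markers 0 were past 2-fold in either direction, from Muc2, the goblet cell mucin, at 0.72 to the endocrine granule gene Chgb at -0.99, and they summed to 2812 FPKM in KO and 2472 FPKM in WT. The 6 stem cell markers ran from Smoc2 at 0.19 to Ascl2 at -0.71, with a median of -0.12 as deposited that became 0.11 with the TMM factor. White blood cell markers, 6 of 11 measured, summed to 12.4 FPKM in KO and 29.1 FPKM in WT, with S100a9 at 0 in WT. Cd68 and Coro1a were the 2 of them at least 2-fold lower in KO, with log2 ratios of -1.40 and -1.14. Plain ratios of KO over WT were 0.34 for Cd68, 0.31 for Coro1a and 0.39 for Fcer1g. They were 0.40 for Ptprc and 0.43 for Itgb2, against 1.37 for Itgam. Endothelial markers, 4 of 5 measured, summed to 4.53 FPKM in KO and 11.2 FPKM in WT, with Cldn5 at -1.47. Stromal markers, of which only Dcn was measured, summed to 2.58 FPKM in KO and 4.92 FPKM in WT. The plain ratios were 0.16 for Cldn5, 0.47 for Pecam1, 0.55 for Cdh5, 0.62 for Kdr and 0.32 for Dcn. The part of these cell types in the differences of the enzyme genes was not tested.

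Many carriers and enzymes that handle the released sugars were higher in KO as well. Of 22 measured genes of sugar uptake and hexose handling 9 were at least 2-fold higher and 0 lower, with a median log2 ratio of 0.53, where 2.44% of all genes measured were higher. Of the 9, 3 were under 1 FPKM in WT and counted as measured only through KO, so they had to read higher. The fructose carrier Slc2a5 was at 12.2 FPKM in KO and 1.46 FPKM in WT (log2 ratio 2.42), and the glucose carrier Slc2a2 at 20.22 FPKM in KO and 2.99 FPKM in WT (2.41). Slc5a1, the sodium-glucose cotransporter of the brush border, was at 196.66 FPKM in KO and 38.89 FPKM in WT (2.31). Slc5a11, a sodium-coupled inositol carrier, was at 7.35 FPKM in KO and 0.87 FPKM in WT (2.16). All 4 are membrane carriers of sugars or polyols.

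Genes related to the sugar hydrolases, or acting on phosphates at the cell surface, were mostly within 2-fold by log2 ratio. Relatives of the sugar hydrolases, such as the lysosomal and endoplasmic reticulum glucosidases, had 7 of 13 measured and 0 past 2-fold. Over all genes measured 2.44% were higher and 2.19% lower. The median log2 ratio of these relatives was -0.31. They ran from Ganc, a neutral alpha-glucosidase, at 0.32 to Klb, a co-receptor for endocrine fibroblast growth factors, at -0.88. Klb was at 0.48 FPKM in KO and 1.73 FPKM in WT, a plain ratio of 0.28 that the pseudocount brings within 2-fold. Other surface phosphohydrolases had 8 of 14 measured and 2 at least 2-fold higher, with a median of 0.23, where 2.44% of all genes measured were higher. These were Enpp7, the intestinal alkaline sphingomyelinase, at 3.33 FPKM in KO and 0.60 FPKM in WT, and Enpp3, an ectonucleotide pyrophosphatase, at 4.12 FPKM in KO and 1.05 FPKM in WT. Enpp7 counted as measured only through KO. Whether these lists differ from the 7 genes was not tested.

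The GPI anchor holds alkaline phosphatases and trehalase on the membrane. Genes of its synthesis and attachment had 0 of 27 measured members past 2-fold, with a median log2 ratio of -0.16 as deposited and 0.05 with the TMM factor. They ran from the deacetylase gene Pigl at 0.42 to Gpaa1, of the transamidase that attaches the anchor, at -0.74. Over all genes measured 2.44% were higher and 2.19% lower by 2-fold or more, and 0 of 27 is near those shares.

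Transcription factors known to act on intestinal enzyme genes stayed mostly within 2-fold. Of 21 measured 1 was at least 2-fold higher and 0 lower, with a median log2 ratio of 0.15. Over all genes measured 2.44% were higher and 2.19% lower by that much. The higher factor was Maf, a basic leucine zipper factor, at 16.54 FPKM in KO and 3.16 FPKM in WT (2.08). With the TMM factor 4 of the 21 were at least 2-fold higher, against 3.62% of all genes, and 1 of the 4 was measured only through KO. Cdx2, whose sites the TTTAC and TTTAT motifs resemble, was at 78.87 FPKM in KO and 65.05 FPKM in WT. Hnf4a was at 251.9 FPKM in KO and 177.55 FPKM in WT, and Gata4 at 59.43 FPKM in KO and 40.42 FPKM in WT. These last 3 were named after their values were seen, because the motifs above are of their kind or they are widely known in enterocytes.

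Since lactase belongs to the suckling gut, genes of the suckling-stage epithelium were read beside it. Of 6 measured 1 was at least 2-fold higher in KO and 0 lower, with a median log2 ratio of 0.05. Over all genes measured 2.44% were higher and 2.19% lower by that much. The higher gene of the 6 was Cubn, an endocytic receptor, at 5.12 FPKM in KO and 1.17 FPKM in WT. Prdm1, the repressor that holds back adult enzyme genes in suckling mice, is named after its value was seen and was at 2.24 FPKM in KO and 2.14 FPKM in WT. Arg2, an arginase of the adult stage named as the counterpart of this list, was at 66.43 FPKM in KO and 24.09 FPKM in WT. Lct was higher in KO, and most of the suckling-stage list stayed within 2-fold, as did most genes measured. Any link between the Lct level and that stage was not tested.

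**Figure D4:**
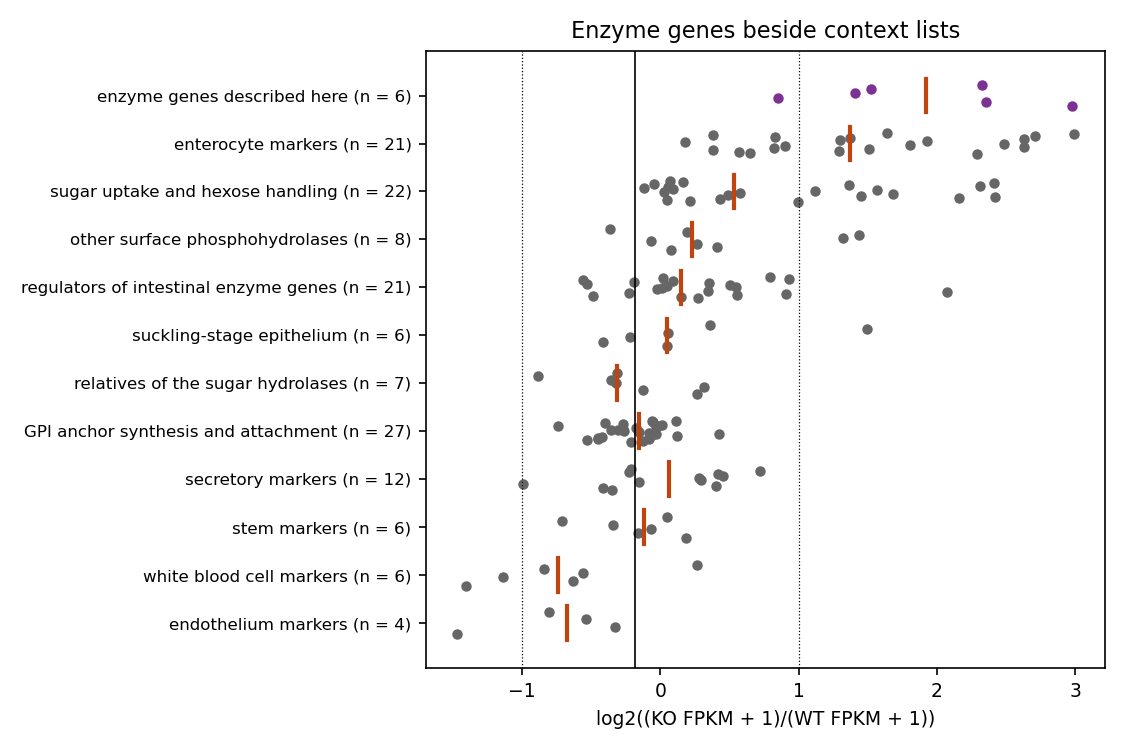
log2 ratio of KO over WT for each measured gene (points) of the 6 measured enzyme genes and of 11 lists of other genes, with the median of each list as an orange bar; the solid line is the median of all genes (-0.18) and the dotted lines mark 2-fold. The enzyme genes have a median of 1.92 and the enterocyte markers one of 1.37, while the GPI anchor genes cluster around the median of all genes and the white blood cell and endothelial markers lie mostly below it.

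Genes with levels most like those of each enzyme gene were found by the distance between log2(FPKM + 1) values over the 2 libraries, which is a weak measure of likeness. For Sis the nearest was Slc5a1, at a distance of 0.08, followed by Enpep (0.25). For Lct they were the carriers Slc5a11 (0.60) and Slc2a5 (0.70), and for Alpi the amine oxidase Maoa (0.11) and the dipeptidase Cndp2 (0.26). Akp3 lay nearest to the surface enzyme Ggt1 (0.27) and to Cmbl (0.29). Treh lay nearest to Mfsd4b2 (0.16) and Mettl7b (0.20), and Mgam to H2-Q2 (0.08) and Apob (0.09). Slc5a1, Enpep, Slc5a11, Slc2a5 and Apob also stand in the lists above.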

How the data were processed

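Total RNA of 2 cultures, 1 per genotype, was read on a BGISEQ-500 in single-end runs of 50 bases, per the labels' protocols. The authors deposited FPKM values per gene, rounded to 2 decimals, per the file headers. HISAT, Bowtie2, RSEM and mm9 are named in the submitters' processing notes; these sources state no version, annotation or filter. FPKM is scaled by library total, so abundant genes that differ shift all others.

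The tables were joined on Entrez gene number (18944 genes), and the log2 ratio with a pseudocount of 1 was computed for all genes at 1 FPKM or more in either library. No test was possible with 1 library per genotype. The enzyme genes, the lists and the naming rule were chosen with earlier results of these data known. Named genes were the 7 enzyme genes, Stat6 and Lgr5; of each list up to 4 members past 2-fold by size, or else the highest and lowest; and the 2 genes nearest in level to each enzyme gene, without predicted models, clones and pseudogenes; Arg2 was named beside the suckling-stage list. Some genes and motifs that were selected are not reported here.

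Depth was estimated as the library size that brought values of short genes (up to 400 bases, RefSeq lengths) closest to whole reads, with an effective length 37 bases shorter than annotated. Of such values 89.7% in KO and 87.9% in WT lay within 0.1 read of a whole number, which the choice of depth favours. Read numbers of genes use the longest GENCODE M21 transcript and are approximate. Promoter and transcript sequences are of GRCm38, not mm9, and were not joined to the deposited values by position. Alternatives were pseudocounts of 0.1 and 5 and none, a TMM factor (trims of 30% and 5%), other totals, minima and thresholds. Python 3.11.15, pandas 2.3.3, numpy 2.4.6 and Biopython 1.88 were used. The 2-fold call on log2 ratios and the TMM factor were tested on simulated data, and the other steps were not.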

Additional observations from a re-analysis of the deposited data

How the results depend on the processing

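Of 69 alternative values of the enzyme genes' log2 ratios, counts and median, 61 stayed the same by the rule used. That rule was to keep the side of 2-fold and stay within 1.5-fold, or within 1.5 times for counts. The 61 include the count of genes at least 2-fold lower, which was 0 in every setting. None of the 6 measured genes read lower in KO, so that count had little room to move. Among the log2 ratios and medians 0 changed sign, which for the pseudocounts was fixed in advance. A pseudocount cannot change which library reads higher, and counts have no sign. Low levels moved with the pseudocount, since it is large beside them. The log2 ratio of Lct was 4.14 with a pseudocount of 0.1, 1.54 with 5 and 4.38 with none, the last chosen after seeing the data. That of Treh was 0.80 with a pseudocount of 5, which leaves 4 of 6 genes past 2-fold. Mgam passed 2-fold with the TMM factor (1.08) and with the median of all genes set to 0 (1.03), giving 6 of 6. At a threshold of 4-fold 3 genes passed, fewer by construction. Summed with Alpi, the log2 ratio of Akp3 became 1.55. Over all genes 295 were at least 2-fold higher and 264 lower as deposited, against 437 and 171 with the TMM factor, which moves the median of all genes from -0.18 to 0.02. With a pseudocount of 0.1 these counts were 374 and 607. No paired analysis was possible because each genotype has 1 library. Depth limits Alpl, and the spread between cultures of 1 genotype is unknown.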

Other observations

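Genes that flank the enzyme genes in the RefSeq order and are listed in both tables were read as a description, chosen by position. Lct lies between Ubxn4, at 26.11 FPKM in KO and 23.27 FPKM in WT, and Mcm6, a subunit of the replicative helicase, at 30.39 FPKM in KO and 46.75 FPKM in WT (log2 ratio -0.61). Neither was higher in KO to the extent that Lct was. Treh lies between Ddx6, at 29.85 FPKM in KO and 33.03 FPKM in WT, and Phldb1, at 1.26 FPKM in KO and 2.40 FPKM in WT.

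The cluster of alkaline phosphatase genes on chromosome 1 is flanked by Dis3l2, at 6.70 FPKM in KO and 7.47 FPKM in WT, and by Ecel1, at 2.09 FPKM in KO and 1.74 FPKM in WT. Within it Alppl2, Alpi and Akp3 all read higher in KO, although Alppl2 stayed under 1 FPKM. The nearest listed genes on either side of Sis and of Mgam were at no more than 0.03 FPKM in either library. Alpl lies between Rap1gap and Ece1, with log2 ratios of 0.10 and 0.22.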
